A study of Mus musculus with 4 samples.

Results

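The 10 genes described here build the MHC class I antigen presentation pathway, and they were chosen by symbol: H2-K1, H2-D1, B2m, Tap1, Tap2, Tapbp, Psmb8, Psmb9, Psmb10 and Nlrc5. Each symbol matched 1 Ensembl ID of the deposited count table, so 10 of its 54532 genes are covered, and all 10 passed the filter on low counts that left 13306 genes. RNA was sequenced from primary mouse embryonic fibroblasts (MEFs), the connective-tissue cells that grow out of a dissociated embryo, at 1 library for each of 4 genotypes. The genotypes were Trp53-/-; Zfp871-/- (called double null below), Trp53-/-, Zfp871-/- and wild type (WT). All cells carried the C57BL/6 strain label, came from embryos between 12.5 and 13.5 days post-coitum and were at passage 4. The series description derives double-null, Trp53-/- and some WT cells from double-heterozygous parents, and Zfp871-/- and other WT cells from Zfp871-heterozygous parents. The sources used here do not say which parents the sequenced WT cells had, how many embryos went into a culture or how the alleles were built. Trp53 encodes the tumour suppressor p53, and Zfp871 encodes a zinc finger protein that the series title links to p53 and Mdm2.

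MHC class I molecules show fragments of a cell's own proteins to cytotoxic T cells. A heavy chain, encoded in C57BL/6 mice by H2-K1 and H2-D1, pairs with beta-2-microglobulin (B2m) and holds a peptide that the proteasome cut, the Tap1-Tap2 transporter moved into the endoplasmic reticulum and tapasin (Tapbp) helped to load. Interferons raise the whole pathway, partly through the transactivator Nlrc5, and they make cells replace the catalytic proteasome subunits by Psmb8, Psmb9 and Psmb10. Fibroblasts keep some genes of the pathway at a low level unless interferon is present.

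The libraries held 19303167 to 22324599 counts, and no genotype had a second library. Differences between 2 libraries therefore have no replicate check, and their intervals are exact binomial 95% intervals that cover counting error only. Testing was limited to an additive edgeR quasi-likelihood model, Trp53 + Zfp871, fitted to all 4 libraries with Benjamini-Hochberg adjustment over 13306 genes at 0.05. It has 1 residual degree of freedom and takes libraries of different genotypes as replicates of a Trp53 or Zfp871 level. It has no term for cross, although both Trp53-null libraries had double-heterozygous parents and Zfp871-/- did not. A gene is said to have risen or fallen where its adjusted p was below 0.05. Levels are normalized CPM, which divides the count of a gene by the size of its library after TMM (trimmed mean of M-values) scaling, unless FPKM, which also divides by gene length, is named. Both targeted genes had fewer counts where the label says null. Trp53 had 1382 and 1233 counts in the double null and Trp53-/-, against 2413 and 2383 in Zfp871-/- and WT, and Zfp871 had 307 and 327 counts in the double null and Zfp871-/-, against 784 and 660 in Trp53-/- and WT. All 12 fibroblast markers, among them Col1a1, were expressed in each library.

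With Trp53 loss, 6 of the 10 genes rose and 0 fell in the edgeR quasi-likelihood test: H2-K1, H2-D1, B2m, Tapbp, Psmb8 and Nlrc5. Of all genes tested 5.01% rose and 4.31% fell, 9.33% in either direction. At an unadjusted p under 0.05 there were 8 of the 10, beside 31.0% of all genes. The heavy chain, light chain and transactivator genes were about 2-fold to 3-fold higher in Trp53-/- than in WT. The transporter genes Tap1 and Tap2 had the smallest fold changes of the 10. Macrophage markers were higher in the same libraries, with a summed level of 1010.1 CPM in the double null and 1128 CPM in Trp53-/-, against 91.5 CPM in Zfp871-/- and 79.1 CPM in WT, and their part in the differences was not tested. With Zfp871 loss 0 of the 10 genes passed that edgeR test (0.0% of all genes did), 2 had an unadjusted p under 0.05 (3.83% of all genes did), and DESeq2 and limma-voom also called 0. In the double null over Trp53-/-, each of the 10 had a lower level, as had 49.1% of all genes. That pair of single libraries was not tested. The median log2 ratio of the 10 genes was 1.20 in Trp53-/- over WT and 0.90 in the double null over Zfp871-/-, where the medians of all genes tested lay at 0.001 and 0.002. It was -0.07 in Zfp871-/- over WT and -0.46 in the double null over Trp53-/-, where the medians of all genes lay at -0.005 and 0.004.

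**Figure D1:**
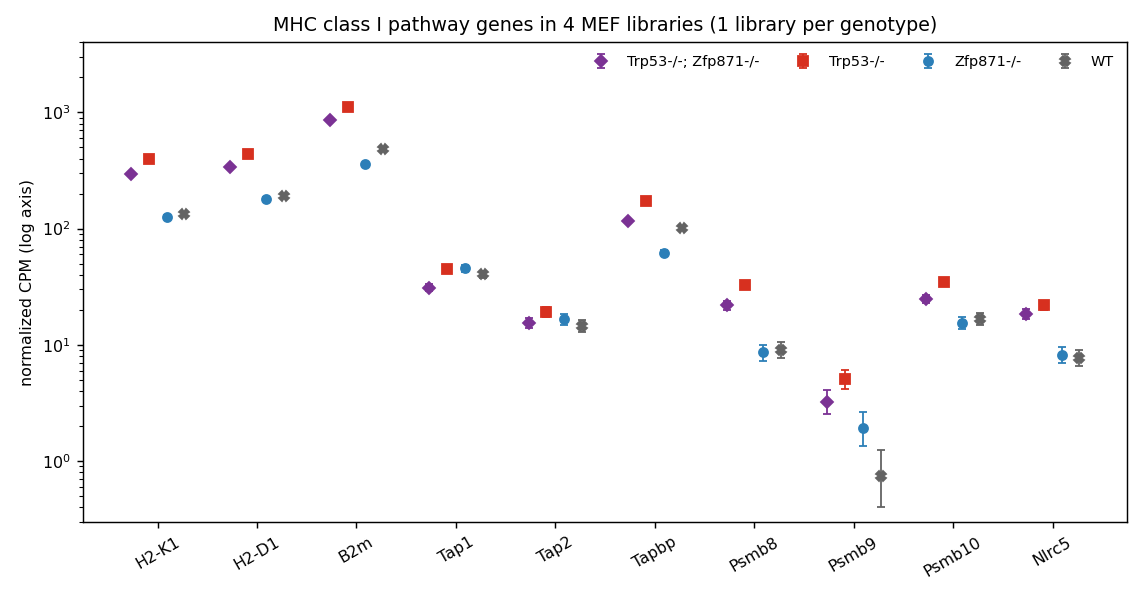
Normalized CPM (log axis) of the 10 class I pathway genes in the double-null, Trp53-/-, Zfp871-/- and WT library, with exact Poisson 95% intervals that cover counting error only. H2-K1, H2-D1, B2m, Tapbp, Psmb8, Psmb9, Psmb10 and Nlrc5 lie higher in both Trp53-null libraries than in both others, while Tap1 and Tap2 do not.

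The heavy chains present the peptide itself. H2-K1 (ENSMUSG00000061232, chromosome 17, 33996017 to 34000347, GRCm38/mm10) had a level of 293.9 CPM in the double null, 400.2 CPM in Trp53-/-, 125 CPM in Zfp871-/- and 134.6 CPM in WT. H2-D1 (ENSMUSG00000073411, chromosome 17, 35262730 to 35267499) had 337 CPM in the double null, 437 CPM in Trp53-/-, 181 CPM in Zfp871-/- and 191 CPM in WT. Both genes were thus highest in Trp53-/-, second in the double null and close together in the other two libraries. H2-K1 rose with a log2 fold change of 1.40 with Trp53 loss in edgeR (SE 0.135, adjusted p 0.0205). H2-D1 rose by 1.04 in edgeR (SE 0.13, adjusted p 0.0275). The share of H2-K1 relative to H2-D1 also differed: on the FPKM scale H2-K1 stood at 86.4% and 90.6% of H2-D1 in the double null and Trp53-/-, against 68.3% and 69.8% in Zfp871-/- and WT. How multi-mapped reads were counted is not stated, so the split of reads between these related genes is uncertain. Of the 100-base stretches of annotated transcripts, 0.957% of those of H2-K1 and 3.59% of those of H2-D1 also occur in a transcript of another gene; of 50-base stretches these shares were 9.63% and 12.8%. A sum over both genes keeps reads that were assigned to the wrong one of them. The sum was 14650 counts in the double null, 18290 in Trp53-/-, 5766 in Zfp871-/- and 6143 in WT. Its log2 ratio was 1.36 (95% interval 1.32 to 1.40) in Trp53-/- over WT and 1.04 (1.00 to 1.09) in the double null over Zfp871-/-.

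B2m, the light chain shared by all class I molecules, was the most abundant of the 10 genes. B2m (ENSMUSG00000060802, chromosome 2, 122147686 to 122153083) had 860.4 CPM in the double null, 1102 CPM in Trp53-/-, 361 CPM in Zfp871-/- and 479 CPM in WT. Each Trp53-null library exceeded each library with Trp53, and within each Trp53 state the Zfp871-null library was the lower one. B2m rose with a log2 fold change of 1.23 in edgeR (SE 0.116, adjusted p 0.0196). On the FPKM scale B2m stood at 999.9 in the double null and 1275 in Trp53-/-, against 420.2 in Zfp871-/- and 554 in WT. This was 4.11, 3.97, 3.56 and 4.44 times the summed FPKM of H2-K1 and H2-D1 in the double null, Trp53-/-, Zfp871-/- and WT. No 50-base stretch of its annotated transcripts occurs in another gene.

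Sequences before the starts of these 3 genes are shown for the letters on which the class I transactivator complex and interferon factors act. They are the 250 bases before the RefSeq start (GRCm38.p6), 5′ to 3′ on the strand of the gene. Capitals mark TGACG and ATTGG, the cores of the X2 and Y boxes, where they stand 20 bases apart, AANNGAAA or its reverse complement, the core bound by interferon regulatory factors (IRF), and the NF-kB palindrome of the class I enhancer, the run of G, ATT and C that H2-K1 and H2-D1 share. The Tap1 sequence is shown as an example without these matches. It does hold TGACG and the reverse complement of ATTGG, but not at that spacing.
H2-K1 (chr17:34000348-34000597, minus strand): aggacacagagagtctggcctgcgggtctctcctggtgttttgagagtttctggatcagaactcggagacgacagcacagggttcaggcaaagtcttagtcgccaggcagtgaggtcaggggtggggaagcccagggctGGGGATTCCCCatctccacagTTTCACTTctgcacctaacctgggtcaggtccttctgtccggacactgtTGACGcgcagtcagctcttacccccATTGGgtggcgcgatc
H2-D1 (chr17:35262844-35263093, plus strand): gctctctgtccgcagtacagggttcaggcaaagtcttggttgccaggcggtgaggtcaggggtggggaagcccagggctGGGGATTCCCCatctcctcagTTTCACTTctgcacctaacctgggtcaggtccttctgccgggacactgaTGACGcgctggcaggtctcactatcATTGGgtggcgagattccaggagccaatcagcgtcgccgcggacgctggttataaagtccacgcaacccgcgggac
B2m (chr2:122147437-122147686, plus strand): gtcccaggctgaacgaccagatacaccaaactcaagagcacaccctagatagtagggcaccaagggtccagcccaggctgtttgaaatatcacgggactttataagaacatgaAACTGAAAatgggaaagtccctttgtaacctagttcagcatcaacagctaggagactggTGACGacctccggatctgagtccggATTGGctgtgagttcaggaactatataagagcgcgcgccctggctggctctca
Tap1 (chr17:34187306-34187555, plus strand): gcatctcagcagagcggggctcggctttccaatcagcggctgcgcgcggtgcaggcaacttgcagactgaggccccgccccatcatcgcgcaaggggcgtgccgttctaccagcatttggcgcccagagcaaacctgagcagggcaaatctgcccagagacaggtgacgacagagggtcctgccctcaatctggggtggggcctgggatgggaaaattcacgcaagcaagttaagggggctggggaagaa
The TGACG and ATTGG pair at this spacing (TGACGNNNNNNNNNNNNNNNNNNNNATTGG, both strands) stood in H2-K1, H2-D1 and B2m, and in 30 of 32841 promoter windows (0.0913%), which belong to 26 genes. The spacing was chosen after these sequences had been read. Another class I gene, H2-M3, named here after the list was seen, is among the 26. AANNGAAA stood in the same 3 members and in 21.3% of all windows. The NF-kB palindrome stood in H2-K1 and H2-D1 and in 0.0304% of all windows. The 3 motifs did not overlap each other in these windows. The STAT core TTCNNNGAA was found in Psmb8 only of the 8 members with a RefSeq window, and in 7.02% of all windows. The p53 half-site consensus was found in 0 of the 8 and in 7.13% of all windows. Tapbp, Psmb9, Psmb10 and Tap1 held none of the 5 motifs, although Tapbp rose. Psmb8, which also rose, held none of the 3 marked motifs. Whether the motifs have a part in the differences was not tested. A match describes letters only, and no binding was measured. Tap2 and Nlrc5 had no window in the table used.

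The Tap1-Tap2 transporter carries peptides into the endoplasmic reticulum. Tap1 (ENSMUSG00000037321, chromosome 17, 34187553 to 34197225) had 31.0 CPM in the double null, 44.7 CPM in Trp53-/-, 45.7 CPM in Zfp871-/- and 40.5 CPM in WT. Tap2 (ENSMUSG00000024339, chromosome 17, 34203527 to 34216321) had 15.4 CPM in the double null, 19.1 CPM in Trp53-/-, 16.6 CPM in Zfp871-/- and 14.5 CPM in WT. The Trp53-null libraries did not stand apart for either gene, and the lowest Tap1 level was that of the double null. Neither passed the edgeR quasi-likelihood test for Trp53 loss: Tap1 had a log2 fold change of -0.21 (SE 0.206, adjusted p 0.543) and Tap2 one of 0.15 in edgeR (SE 0.198, adjusted p 0.66). In single comparisons Tap1 lay on both sides of 0, with a log2 ratio of 0.14 (0.002 to 0.278) in Trp53-/- over WT and of -0.56 (-0.70 to -0.42) in the double null over Zfp871-/-. For Tap2 these ratios were 0.40 (0.17 to 0.62) and -0.10 (-0.33 to 0.12), the second of which did not exceed counting error.

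Tapbp encodes tapasin, which holds empty class I molecules at the transporter. Tapbp (ENSMUSG00000024308, chromosome 17, 33915899 to 33929292) had 116 CPM in the double null, 172 CPM in Trp53-/-, 62.1 CPM in Zfp871-/- and 101 CPM in WT. The Trp53-null libraries were higher, and WT lay nearer to the double null than to Zfp871-/-. Tapbp rose with a log2 fold change of 0.83 in edgeR (SE 0.108, adjusted p 0.0292). Left without Zfp871 as a term, the same edgeR test no longer called Tapbp (adjusted p 0.14, over all 6 alternatives 0.00145 to 0.14). An exon of Zbtb22 on the same strand shares 149 bases with Tapbp. Zbtb22 had 534 counts in the double null, 536 in Trp53-/-, 457 in Zfp871-/- and 506 in WT. An antisense gene shares 904 bases with Tapbp and had 0 or 1 counts in each library. How reads in these shared parts were assigned is not stated.

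The catalytic subunits of the immunoproteasome cut proteins into peptides that fit class I grooves. Psmb8 (ENSMUSG00000024338, chromosome 17, 34197721 to 34201454) had 21.9 CPM in the double null, 32.6 CPM in Trp53-/-, 8.59 CPM in Zfp871-/- and 9.00 CPM in WT. Psmb10 (ENSMUSG00000031897, chromosome 8, 105935735 to 105938444) had 24.7 CPM in the double null, 34.5 CPM in Trp53-/-, 15.5 CPM in Zfp871-/- and 16.7 CPM in WT. Both were higher in each Trp53-null library than in each library with Trp53, and near equal between Zfp871-/- and WT. Psmb8 rose with a log2 fold change of 1.60 in edgeR (SE 0.2, adjusted p 0.0277). Psmb10 had a log2 fold change of 0.86 (SE 0.165) and missed the threshold in the same edgeR test with a Benjamini-Hochberg adjusted p of 0.0524. It passed in 5 of 6 alternative fits, with adjusted p between 0.0183 and 0.0554 over the edgeR, DESeq2 and limma-voom alternatives. Psmb9 (ENSMUSG00000096727, chromosome 17, 34181987 to 34187764) was the least abundant of the 10, with 75 counts in the double null, 111 in Trp53-/-, 36 in Zfp871-/- and 14 in WT. Here WT stood below each of the other libraries. Psmb9 had a log2 fold change of 1.69 with Trp53 loss in edgeR (SE 0.591, adjusted p 0.147) and was not called. Psmb9 and Tap1 lie head to head, their exons share 212 bases on opposite strands and 225 bases of their windows before the start are the same. Reads in the shared exon part cannot be assigned without a strand setting, and none is stated.

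The constitutive subunits that Psmb8, Psmb9 and Psmb10 replace are Psmb5, Psmb6 and Psmb7. For Trp53 loss 0 of the 3 passed the edgeR quasi-likelihood test (9.33% of all genes did). At an unadjusted p under 0.05 there were 0 (31.0% of all genes), and DESeq2 and limma-voom called 0. Log2 fold changes were 0.08 for Psmb5, 0.17 for Psmb6 and 0.26 for Psmb7. On the FPKM scale Psmb8 stood at 7.57% of Psmb5 in the double null and 11.9% in Trp53-/-, against 3.56% in Zfp871-/- and 3.07% in WT. Psmb9 stood at 1.45% of Psmb6 in the double null and 2.43% in Trp53-/-, against 1.05% in Zfp871-/- and 0.366% in WT. Psmb10 stood at 40.8% of Psmb7 in the double null and 57.2% in Trp53-/-, against 30.8% in Zfp871-/- and 33.2% in WT. In each library the constitutive subunit had the higher level of RNA per length, and each of the 3 ratios was highest in Trp53-/-.

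**Figure D2:**
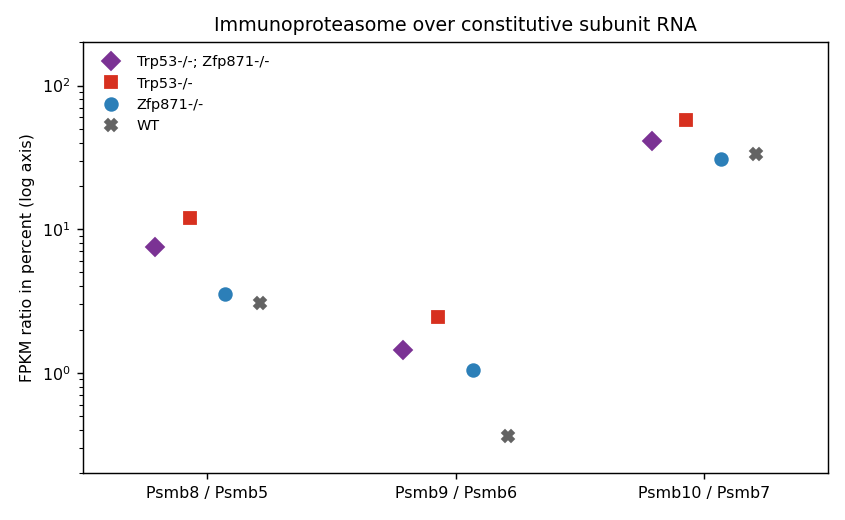
FPKM of each immunoproteasome subunit as a percent of the constitutive subunit it replaces (log axis), 1 point per library. Psmb10 reaches 57.2% of Psmb7 in Trp53-/-, while Psmb9 stays at or below 2.43% of Psmb6 in all 4 libraries.

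Nlrc5 encodes a regulator of the NLR family that enters the nucleus and switches on class I promoters. Nlrc5 (ENSMUSG00000074151, chromosome 8, 94434356 to 94527272) had 18.3 CPM in the double null, 21.9 CPM in Trp53-/-, 8.22 CPM in Zfp871-/- and 7.73 CPM in WT. The Trp53-null libraries were more than 2-fold above the others. Nlrc5 rose with a log2 fold change of 1.33 in edgeR (SE 0.19, adjusted p 0.0344).

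The order of the levels per length was nearly the same in all 4 libraries. B2m led, followed by H2-D1, H2-K1, Tapbp and Psmb10 in each, and Nlrc5 and Psmb9 were the lowest. Psmb8 lay above Tap1 and Tap2 in both Trp53-null libraries and below them in Zfp871-/- and WT. Its FPKM was 7.99 in the double null and 11.9 in Trp53-/-, against 3.14 in Zfp871-/- and 3.27 in WT, whereas that of Tap1 was 5.65, 8.12, 8.35 and 7.36 in the same libraries. Counting intervals of neighbours in the order overlapped only for Psmb10 and Tap1 in Zfp871-/- and for Tap2 and Psmb8 in WT. B2m exceeded the FPKM of 99.9% of the tested genes in the double null and Trp53-/-, 99.5% in Zfp871-/- and 99.7% in WT. Psmb9 exceeded 15.2% in the double null, 20.5% in Trp53-/-, 9.57% in Zfp871-/- and 3.28% in WT.

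**Figure D3:**
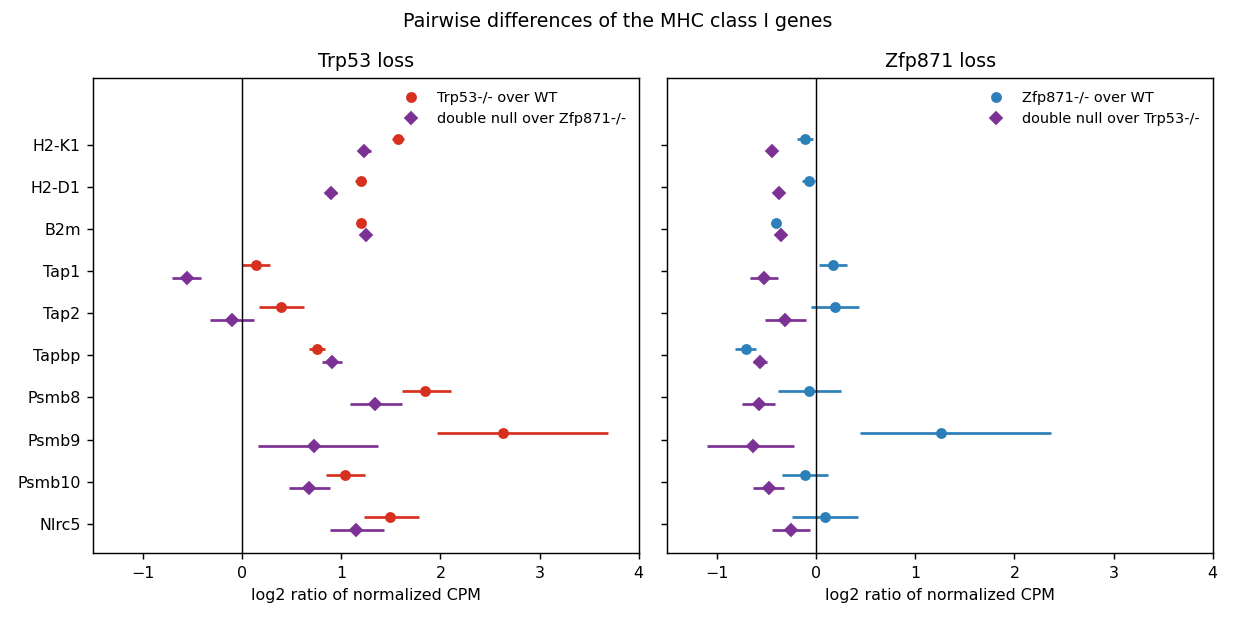
Log2 ratios of normalized CPM for Trp53 loss (left) and Zfp871 loss (right), each in cells with and without the other gene, with exact binomial 95% intervals that cover counting error only. All 10 genes lie below 0 in the double null over Trp53-/-, between -0.64 and -0.26, whereas they lie on both sides of 0 in Zfp871-/- over WT.

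In Trp53-/- over WT, 7 of the 10 pathway genes reached a 2-fold higher level, as did 8.9% of all genes, and 0 a 2-fold lower one, as did 8.88%. In the double null over Zfp871-/-, 4 of the 10 reached a 2-fold higher level (5.51% of all genes) and 0 a 2-fold lower one (6.33%). The log2 ratio was below 0 for 0 of the 10 in Trp53-/- over WT, against 49.9% of all genes, and for Tap1 and Tap2 in the double null over Zfp871-/-, against 49.8%. The log2 ratios of the 10 ran between 0.14 and 2.63 in Trp53-/- over WT and between -0.56 and 1.34 in the double null over Zfp871-/-. These comparisons share no library, but the parents of their cells can differ too. The double null and Zfp871-/- had parents of different genotypes, so their ratio mixes Trp53 state with cross. For Trp53-/- over WT this is not known, since the parents of the sequenced WT cells are not stated. The part of cross or litter in these ratios was not tested. The double null compared with WT gave a median of 0.83, with 4 of 10 genes at least 2-fold higher (8.79% of all genes), 0 at least 2-fold lower (9.23%) and 1, Tap1, below 0 (50.1%).

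Zfp871 loss was described separately in cells with and without Trp53. In Zfp871-/- over WT, 6 of the 10 genes had a log2 ratio below 0, as had 50.5% of all genes tested. Tapbp (-0.71, interval -0.81 to -0.60) and B2m (-0.41, -0.45 to -0.36) had the lowest ratios there. Psmb9 was the only one of the 10 at least 2-fold higher (3.52% of all genes were), with a log2 ratio of 1.26 (0.44 to 2.37) on 36 against 14 counts, and 0 were at least 2-fold lower (3.98%). In the double null over Trp53-/-, 10 of the 10 had a log2 ratio below 0, as had 49.1% of all genes tested. The counting intervals of all 10 lay below 0 there, from -0.26 for Nlrc5 (-0.45 to -0.07) to -0.64 for Psmb9 (-1.10 to -0.22). How many of all genes tested have an interval below 0 was not counted. Of the 10, 0 reached 2-fold lower (1.01% of all genes did) or 2-fold higher (0.819%). Tapbp and B2m thus had ratios below 0 in both backgrounds, at -0.56 and -0.36 in the double null over Trp53-/-. The comparison of Zfp871-/- with WT shares the WT library with that of Trp53-/- with WT, and the double null and Trp53-/- also serve in more than 1 comparison. In the additive edgeR quasi-likelihood fit Tapbp had a log2 fold change of -0.63 with Zfp871 loss (SE 0.107, unadjusted p 0.00322, adjusted p 0.874). The difference between backgrounds, the log2 ratio without Trp53 minus that with it, was below 0 for 8 of the 10 genes, as it was for 49.8% of all genes. Counting intervals of that difference excluded 0 for 8 genes, 7 below it and Tapbp above it at 0.14 (0.02 to 0.27). That count was not made over all genes tested, so it is not read as particular to the 10. Differences between backgrounds were not tested, since each rests on 4 single libraries.

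Of the 10 genes, 7 lie on chromosome 17 within 5 Mb of the targeted gene Zfp871 (chromosome 17, 32765496 to 32788287), at distances of 1.13 Mb for Tapbp to 2.47 Mb for H2-D1. Alleles that travelled with the targeted Zfp871 locus cannot be told apart from the loss of Zfp871 for these genes. The 7 had a median log2 ratio of -0.07 in Zfp871-/- over WT and of -0.53 in the double null over Trp53-/-. B2m, Psmb10 and Nlrc5, which lie on other chromosomes, had medians of -0.11 and -0.36 in these comparisons. The 172 other tested genes within 5 Mb of Zfp871 had medians of 0.006 and 0.001 there, close to 0 in both comparisons.

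**Figure D4:**
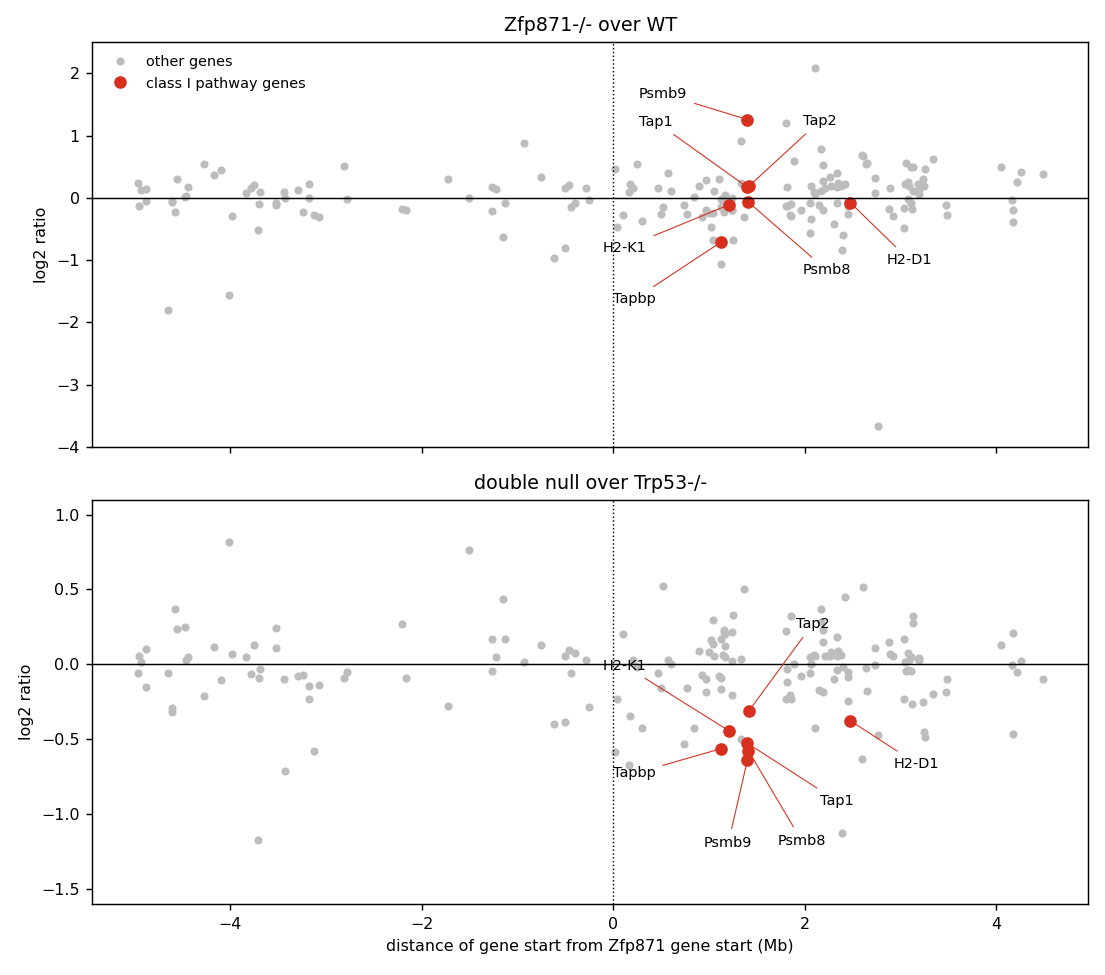
Log2 ratio of each tested gene within 5 Mb of Zfp871 against the distance of its start from the start of Zfp871, for Zfp871-/- over WT (top) and the double null over Trp53-/- (bottom). The 7 pathway genes of the region lie between -0.64 and -0.31 in the lower panel, where the 172 other genes have a median of 0.001; the vertical axes differ between the panels.

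Other genes of the pathway were read from lists. Of 16 further class I heavy chain genes 10 passed the filter, and 3 of these rose with Trp53 loss and 0 fell in the edgeR quasi-likelihood test, beside 5.01% and 4.31% of all genes tested. H2-Q4 had 1233 counts in the double null, 1797 in Trp53-/-, 342 in Zfp871-/- and 211 in WT. H2-T23, which encodes the heavy chain of the Qa-1 molecule, had 833 counts in the double null, 1074 in Trp53-/-, 320 in Zfp871-/- and 280 in WT. Both were highest in Trp53-/- and lowest in WT. Their log2 fold changes were 2.20 (SE 0.357, adjusted p 0.0401) and 1.40 (SE 0.206, adjusted p 0.0351) in the edgeR test, and H2-Q6 had one of 2.30. The list had a median log2 fold change of 1.15 beside 0.002 over all genes tested. Reads of these near-identical genes are uncertain. H2-T22 and Mr1, whose product shows microbial metabolites, were not called in edgeR, with log2 fold changes of 0.81 and -0.66. DESeq2 also called 3 genes of the list, but H2-T22 in place of H2-Q6, while limma-voom called the same 3 as edgeR.

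Lists of peptide loading and trimming, of the proteasome and of class I promoter factors were read next. With Trp53 loss 0 of 16 genes of peptide loading and trimming rose or fell in the edgeR quasi-likelihood test, and 9.33% of all genes did. At an unadjusted p under 0.05 there were 4, beside 31.0% of all genes. DESeq2 called 0 of the 16 and limma-voom 1, Lnpep. The median log2 fold change of this list was -0.08. Calr, Canx, Pdia3 and Hspa5, the chaperones of the endoplasmic reticulum, had values of -0.38, -0.19, -0.27 and -0.03. Of 11 other subunits of the proteasome core 0 were called (2 unadjusted), of 9 activator and assembly genes 0 (0 unadjusted) and of 12 factors of class I promoters 0 (4 unadjusted) in the same edgeR test, and DESeq2 and limma-voom also called 0 of these lists. The medians of these lists were 0.23, 0.32 and 0.27, beside 0.002 over all genes tested. In Trp53-/- over WT 8 of 11, 8 of 9 and 9 of 12 of their genes had a log2 ratio above 0, where 49.9% of all genes lay below 0. In the double null over Zfp871-/- 11 of 11, 8 of 9 and 9 of 12 did, where 49.8% of all genes lay below 0. Among the core, activator and promoter lists Nfya, a subunit of the factor that binds the Y box, came nearest to a call. It had a log2 fold change of 0.53 and an edgeR Benjamini-Hochberg adjusted p of 0.0528. Lnpep, of the loading list, had a log2 fold change of -0.54 and an edgeR adjusted p of 0.0516.

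Interferon signalling genes included several that rose. Of 18 listed genes 16 passed the filter, and 6 of these rose with Trp53 loss and 0 fell in the edgeR quasi-likelihood test, beside 5.01% and 4.31% of all genes. Among them were Irf7, a regulator of type I interferon genes, Irf8, Irf9, Stat2 and Usp18, which restrains the receptor. Irf7 had 850 counts in the double null, 1314 in Trp53-/-, 163 in Zfp871-/- and 142 in WT. It was higher in both Trp53-null libraries than in the others. Its log2 fold change was 2.54, and that of Usp18 was 2.67. Jak1 and Jak2, kinases of interferon receptors, and Ifnar1, a receptor chain, were not called in edgeR, with log2 fold changes of -0.46, 0.80 and -0.21. Jak2 had 2089 counts in the double null, 2413 in Trp53-/-, 1208 in Zfp871-/- and 962 in WT, and DESeq2 called it as higher with Trp53 loss. The list had a median of 0.30 beside 0.002 over all genes tested. Ifnb1 and Ifng, which encode interferons, had 0 counts in all 4 libraries, which allows up to 3 counts or 0.129 to 0.159 CPM in a library. With Zfp871 loss 0 genes of these lists were called in edgeR (0.0% of all genes were), DESeq2 or limma-voom. At an unadjusted edgeR p under 0.05 there was 1 gene, of the loading list, beside 3.83% of all genes. In the double null over Trp53-/- the median log2 ratio of the interferon list was -0.10, and 1 of its 16 genes lay above 0, where 49.1% of all genes lay below 0.

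Markers of macrophages, which carry class I molecules and respond to interferon, were higher in the same libraries. Of 18 macrophage markers 18 rose with Trp53 loss in the edgeR quasi-likelihood test, with log2 fold changes of 2.35 to 4.57, beside 5.01% of all genes. None of the 18 was at 0 in any library, and their summed levels are those given above. Csf1r, the receptor that macrophages depend on, had 2437 counts in the double null, 2698 in Trp53-/-, 230 in Zfp871-/- and 192 in WT. In the double null over Trp53-/- the median log2 ratio of the markers was -0.30, and 3 of the 18 lay above 0, where 49.1% of all genes lay below 0. In these bulk libraries a different number of cells of a type cannot be told apart from a different amount of RNA per cell. Fibroblast markers had a summed level of 36011 CPM in the double null and 40461 CPM in Trp53-/-, against 50374 CPM in Zfp871-/- and 48916 CPM in WT. Of these 12 markers only Col3a1 was called in the edgeR test, as lower with Trp53 loss, as were 4.31% of all genes. DESeq2 called 3 of the fibroblast markers higher and 4 lower. Their median log2 ratio in the double null over Trp53-/- was -0.25, and 2 of the 12 lay above 0.

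**Figure D5:**
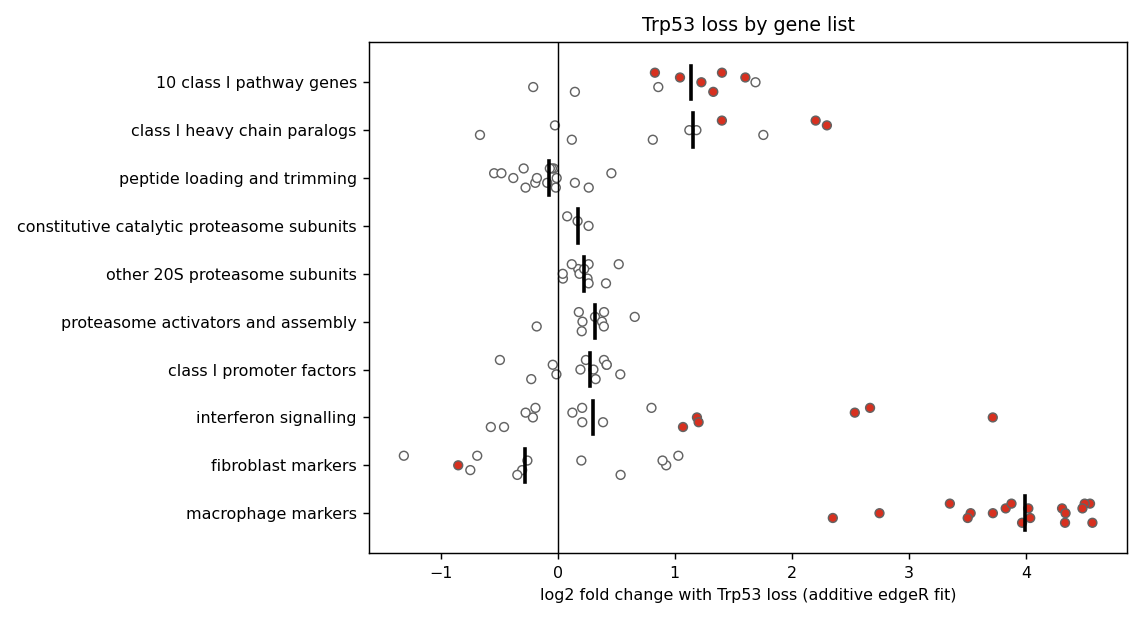
Log2 fold change with Trp53 loss of each tested gene by list, from the additive edgeR quasi-likelihood fit, where filled points have a Benjamini-Hochberg adjusted p under 0.05 and bars mark medians. The 10 class I pathway genes have a median of 1.14, and the 18 macrophage markers lie highest. The proteasome and promoter factor lists have medians of 0.17 to 0.32, and the loading list has one of -0.08.

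The genes whose pattern over the 4 libraries was most like the mean of the 10 were found by the Euclidean distance of log2 CPM profiles, each centred on its own mean. The 8 nearest were Tor3a, Ppp1r14a, Samd9l, Gins3, Jade2, Tlcd2, Tmem8 and Gng2, at distances of 0.08 to 0.14, where the median over the other genes was 1.11. Tor3a had 979 counts in the double null, 1259 in Trp53-/-, 475 in Zfp871-/- and 496 in WT. Samd9l had 1663, 1950, 758 and 739 counts in the same libraries. Of the 10 themselves, H2-D1 lay nearest to their mean at 0.10 and Tap1 farthest at 1.20. A profile of 4 single libraries has few ways to differ, so likeness here is a description.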

How the data were processed

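The authors deposited raw counts per Ensembl gene for 4 libraries. The submitters' processing notes name fastp, STAR, featureCounts and mm10, without versions. For strand setting, annotation release and multi-mapped reads the sources used here give nothing. A deposited table per library holds values whose header gives no unit. These deposited values were taken to be FPKM: over 12047 genes with more than 20 counts in each library, value and count differed by a length per gene and 1 factor per library, to within a relative 1.73e-08. Relative to WT the factor was 1.22 for the double null, 1.16 for Trp53-/- and 0.992 for Zfp871-/-. FPKM served for levels between genes. Symbols and positions came from GENCODE M21, which held 54495 of the 54532 IDs; promoter sequences came from RefSeq.

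Genes with at least 1 CPM in at least 2 libraries were kept (13306) and scaled with TMM in edgeR 4.0.16 (R 4.3.3), at a common dispersion of 0.0302. Log2 ratios used a prior count of 2. Alternatives were DESeq2 1.42.0, limma-voom 3.58.1, other scalings, no filter, single-factor fits and a prior count of 0.5. The genes named were the 10 members, the targeted genes, up to 6 called and the 4 most abundant genes of each list, and the 8 genes most alike; H2-M3, Lnpep and the motifs fall outside this rule, and 1 gene it names is not reported here. The members, lists and motifs were chosen with earlier results of these data known.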

Additional observations from a re-analysis of the deposited data

Results flagged for a closer look

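Tap1 lay on opposite sides of 0 in both kinds of comparison, each time beyond counting error. Its log2 ratio for Zfp871 loss was -0.53 (-0.67 to -0.39) in the double null over Trp53-/- and 0.17 (0.03 to 0.31) in Zfp871-/- over WT, a difference of -0.70 (-0.90 to -0.50). For Trp53 loss the ratios were -0.56 in the double null over Zfp871-/- and 0.14 in Trp53-/- over WT, which is the same difference of -0.70. Computed without a prior count, Psmb9 had log2 ratios of -0.65 in the double null over Trp53-/- and 1.36 in Zfp871-/- over WT, a difference of -2.02 (-3.00 to -1.03), which rests on 14 counts in WT. Neither difference was tested, since each genotype is 1 library.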

How the results depend on the processing

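Of the 60 fold changes of the 10 genes with Trp53 loss under the 6 alternative fits, 60 kept their direction, 5 gained the call (Psmb10) and 1 lost it (Tapbp with Zfp871 left out of the model). The count of called genes was 5 to 7 with Trp53 loss and 0 with Zfp871 loss. The log2 fold change of Psmb9 with Zfp871 loss, not called in any fit, turned to -0.10 in limma-voom and -0.18 in the single-factor fit, and the cause was not tested. With total counts in place of TMM the median log2 ratio of the 10 genes moved to 1.29 in Trp53-/- over WT and to 0.92 in the double null over WT. In the double null over Zfp871-/- it went from 0.90 to 1.04, and 9 instead of 8 of the 10 then lay above 0. With total counts the median of all genes was 0.12 with Trp53 loss, and 884 genes rose and 432 fell, 67.2% upward instead of 53.7%. Without a filter on low counts 1113 rose and 1191 fell with Trp53 loss, against 667 and 574 with it, and for Zfp871 loss 2 rose and 4 fell, against 0 and 0. DESeq2 called 3 genes higher and 4 lower with Zfp871 loss. The summed heavy chain log2 ratio of Zfp871-/- over WT was -0.09 (-0.14 to -0.04) for H2-K1 and H2-D1. Over 16 class I genes, with H2-K1 and H2-D1 among them and Mr1 left out, it was 0.039. The interval of that second sum, -0.006 to 0.085, includes 0. No paired analysis was possible because each genotype has 1 library. Leaving out a library leaves no residual degrees of freedom in the additive fit. Counting error limits Psmb9 most, with 14 to 111 counts.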

Other observations

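Genes of MHC class II, which presents peptides to helper T cells, had few counts. Of 10 listed genes 3 passed the filter, and the summed level of the 10 was 4.52 CPM in the double null, 6.04 CPM in Trp53-/-, 8.38 CPM in Zfp871-/- and 6.25 CPM in WT. Cd74, the invariant chain, had 29 counts in the double null, 53 in Trp53-/-, 10 in Zfp871-/- and 16 in WT. H2-DMa, a chain of the molecule that edits class II peptides, had 31 counts in the double null, 42 in Trp53-/-, 86 in Zfp871-/- and 45 in WT. H2-DMb1, its partner chain, had 25 counts in the double null, 16 in Trp53-/-, 36 in Zfp871-/- and 45 in WT. Their log2 fold changes with Trp53 loss were 1.38 for Cd74, -1.05 for H2-DMa and -1.25 for H2-DMb1. Of the class II genes tested 0 were called for either loss in edgeR, DESeq2 or limma-voom. In edgeR 9.33% of all genes were called for Trp53 loss and 0.0% for Zfp871 loss. An unadjusted edgeR p under 0.05 was seen for 2 with Trp53 loss (31.0% of all genes) and for 0 with Zfp871 loss (3.83%). Markers of dendritic, T and NK cells were low too. Of 7 dendritic cell markers 3 had 0 counts in all 4 libraries, among them Flt3, and of 9 T and NK cell markers 4, among them Cd3d and Cd3e. Other members of these lists had counts. Itgax had 20 counts in the double null and 23 in Trp53-/-, against 0 in Zfp871-/- and 0 in WT. In the double null, Trp53-/-, Zfp871-/- and WT, Zbtb46 had 18, 25, 70 and 52 counts. Trac had 66, 75, 42 and 28 counts in the same order.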
